A study of Rattus norvegicus with 6 samples.

Results

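The 10 genes described here encode surface proteins through which antigen-presenting cells stimulate or restrain T cells. They are Cd80, Cd86, Cd40, Cd274, Pdcd1lg2, Icosl, Cd83, Slamf1, Havcr2 and Cd200r1, and were chosen by name among the 23139 genes listed for each library. Of these, 9 were listed under that name and 1, Icosl, under its other symbol Icoslg, which is used below. All 10 passed the filter on low counts. In order to describe these genes in an inflammatory milieu, primary microglia were shaken off mixed cultures of cortices from Wistar rats of postnatal day 1, which had been kept for 10 days, and were purified by magnetic sorting for CD11b/c. One day after isolation they received 100 ng/mL lipopolysaccharide (LPS, the bacterial surface molecule sensed by TLR4), either with the solvent dimethyl sulfoxide (LPS + DMSO) or with 50 µM siponimod (LPS + siponimod), a modulator of sphingosine 1-phosphate receptors that is used in multiple sclerosis. The comparison rests on 3 biological replicates per condition, and all 6 libraries received LPS. Unstimulated cells and cells given siponimod without LPS were not analysed here, so that no value below shows what LPS itself did. The study describes several durations of stimulation, and which of them applied to the sequenced cells is not clear from the sources used here, nor is it clear whether cells of several animals were pooled.

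A T cell that meets its antigen on a microglial cell or macrophage reads further signals from that cell's surface. CD80 and CD86 bind CD28, which activates, and CTLA-4, which inhibits, and ICOS ligand acts through ICOS, a relative of CD28. PD-L1 (Cd274) and PD-L2 (Pdcd1lg2) engage the inhibitory receptor PD-1. CD40 works the other way round, as a receptor that receives CD40 ligand from activated T cells and then raises costimulatory proteins and cytokines. CD83 is a marker of mature dendritic cells that keeps CD86 and MHC class II at the surface, SLAMF1 binds itself on neighbouring leukocytes, TIM-3 (Havcr2) is an inhibitory receptor first known from T cells and also found on myeloid cells, and CD200R1 restrains microglia when it binds CD200. In microglia several of these proteins are commonly used as signs of activation.

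In order of the replicate numbers, the LPS + DMSO libraries held 39484979, 38301365 and 38080379 counts, and the LPS + siponimod libraries 46643859, 43336006 and 38857441 counts. Levels are given as normalized counts (CPM, counts relative to the total of the library after TMM scaling). Changes were read from the same gene's level in different libraries, since the counts are not divided by gene length. Where different genes are set side by side below, the comparison is of their counts and takes no account of their lengths. All 16 genes of a list of microglia and macrophage markers were detected. Csf1r, the receptor for colony-stimulating factor 1, was the highest of them in LPS + DMSO replicates 1 and 2 and in LPS + siponimod replicate 2. Itgam was the highest in LPS + DMSO replicate 3, and Cd68 in LPS + siponimod replicates 1 and 3. The summed level of the 16 genes was 12257, 9914 and 6954 CPM with LPS + DMSO and 5013, 6340 and 3632 CPM with LPS + siponimod. The list was thus lower in total in every library with siponimod, with 4 of its genes lower (among them Aif1, which encodes Iba1, and Itgam) and 1 higher (Sall1) by the test used below, which found 11.7% of all genes tested lower and 13.6% higher. With the replicate number as a block, Csf1r, P2ry12, C1qa, C1qb and C1qc were lower as well, and Sall1 did not pass. In bulk RNA, fewer cells of a type and less RNA per cell cannot be told apart.

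LPS + DMSO replicate 3 stood apart from the other libraries by markers of oligodendrocyte precursors, and both libraries numbered 3 carried markers of other neural cells. The 5 markers of oligodendrocyte precursors Pdgfra, Cspg4, Olig1, Olig2 and Sox10 summed to 1218 counts there, against 18 and 17 in LPS + DMSO replicates 1 and 2 and 4, 15 and 207 in the LPS + siponimod libraries. Some markers of astrocytes and neurons were high there as well, with 88 counts of Gfap, 82 of Slc1a2, 99 of Sox9, 162 of Map2 and 35 of Dcx, against 0 to 5 in LPS + DMSO replicates 1 and 2. LPS + siponimod replicate 3 carried several of them too, with 115 counts of Map2, 59 of Sox9, 22 of Slc1a2, 11 of Dcx and 1 of Gfap, against 0 to 4 in LPS + siponimod replicates 1 and 2. Mbp and Cnp, markers of the later oligodendrocyte lineage, were at their lowest count of the LPS + DMSO libraries in replicate 3, 84 and 4195. So were the astrocyte markers Slc1a3 (1500, 775 and 574 counts in LPS + DMSO replicates 1, 2 and 3), Aldoc (218, 125 and 123) and Aldh1l1 (59, 21 and 7). The astrocyte markers Gja1 (11, 5 and 41 counts) and Aqp4 (0, 3 and 10) were at their highest count of these libraries in replicate 3. LPS + DMSO replicate 3 also held the highest level of 6 of the 10 genes described here, namely Cd86, Icoslg, Cd40, Cd83, Slamf1 and Cd200r1, while it held the highest level of 21.6% of all genes tested. Whether the other cells contributed to these levels was not tested, and values without this library are given for each of these 6 genes.

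Of the 11977 genes tested, 13.6% were differentially expressed genes (DEGs) that were higher with LPS + siponimod and 11.7% were DEGs that were lower, at an adjusted p of 0.05 or less and a change of 1.5-fold or more (quasi-likelihood test of edgeR, edgeR QL below). Among the 10 genes, Havcr2 was the only higher DEG and Cd80, Slamf1 and Cd274 were the 3 lower DEGs, while 6 did not pass the test. Their median log2 fold change (FC) was -0.69, beside -0.02 over all genes tested, and was -0.28 without LPS + DMSO replicate 3. Within the pairs of same-numbered libraries the median of the 10 genes was -0.45, -0.13 and -1.23 for replicates 1, 2 and 3. The levels of the conditions did not overlap for 1 gene that was higher (Havcr2) and for 5 that were lower (Cd80, Cd274, Pdcd1lg2, Icoslg and Slamf1), whereas 25.3% of all genes tested lay entirely above and 24% entirely below the LPS + DMSO range. Taken alone, a value measured in 3 libraries per condition cannot reach an exact permutation p below 0.10, so that the adjusted p-values also depend on the spread of all other genes, which edgeR shares between them. In all 3 pairs of same-numbered libraries 1 gene was higher and 5 were lower, beside 35.4% of all genes tested in each direction. Without LPS + DMSO replicate 2, LPS + siponimod replicate 1 or LPS + siponimod replicate 3 no lower DEG was left among the 10, while the share of lower DEGs over all genes tested was 1.44%, 1.52% and 2.24% in these fits. Without LPS + DMSO replicate 3 there were 2 higher DEGs among the 10, beside 15.9% of all genes tested. In fits without both libraries numbered 3, to which the lists below also refer, 11.1% of all genes tested were higher and 8.17% lower. Libraries with the same replicate number deviated together, and a fit with that number as a block gave 1 higher and 5 lower DEGs among the 10, Pdcd1lg2 and Icoslg being added. In that fit 17.7% of all genes tested were higher and 16.4% lower DEGs.

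**Figure D1:**
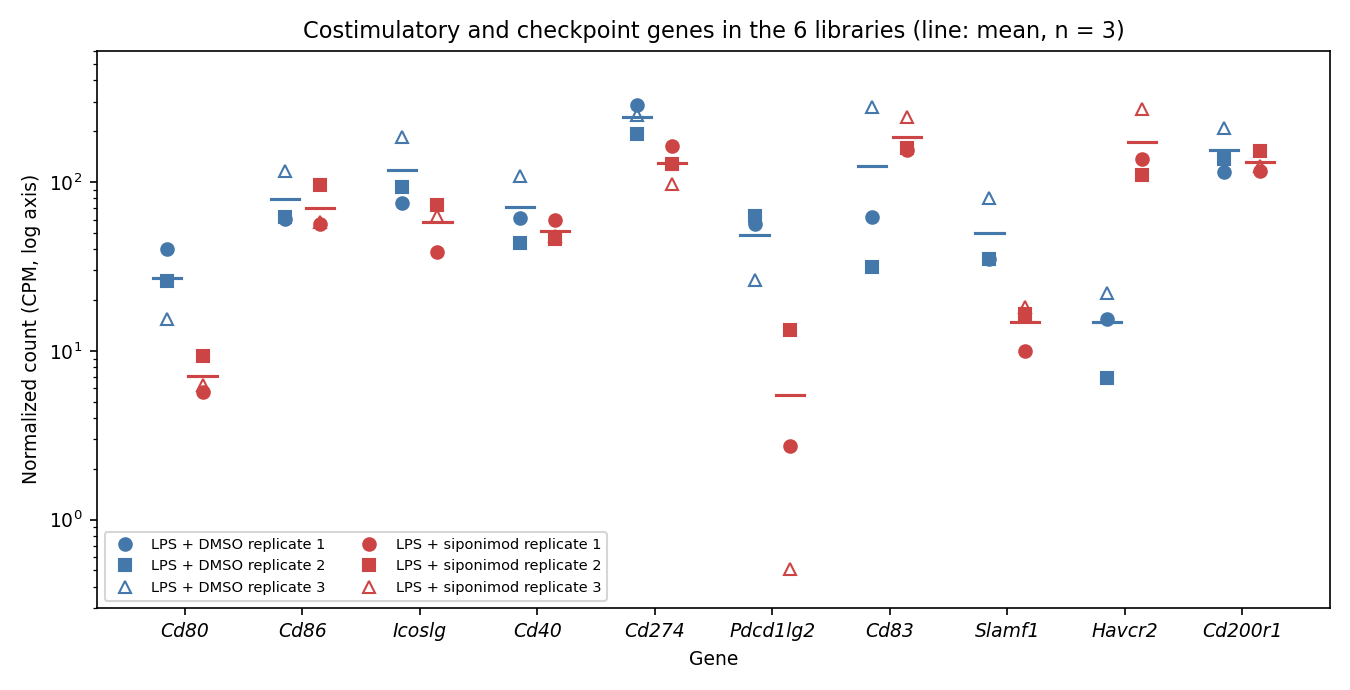
Normalized counts (CPM, log axis) of the 10 genes in the 3 LPS + DMSO (blue) and the 3 LPS + siponimod libraries (red), with 1 symbol per replicate and a line at the mean. Havcr2 lies higher in every library with siponimod, Cd80, Icoslg, Cd274, Pdcd1lg2 and Slamf1 lie lower, and the open blue triangle of LPS + DMSO replicate 3 is the highest point for 6 genes.

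Cd80 and Cd86 encode ligands of the same receptors, CD28 and CTLA-4. Cd80 was at 39.9, 25.9 and 15.3 CPM in LPS + DMSO replicates 1, 2 and 3 and at 5.68, 9.30 and 6.27 CPM in LPS + siponimod replicates 1, 2 and 3. Its highest level with siponimod was below its lowest level without, and it fell 3.82-fold (log2 FC -1.93, SE 0.39, edgeR QL adjusted p = 0.0182), from a mean of 27.1 ± 12.3 to 7.08 ± 1.94 CPM (SD, n = 3 each). The difference was largest in the first pair of libraries, with log2 differences of -2.80, -1.47 and -1.28 in pairs 1, 2 and 3. The direction held whichever of the 6 libraries was left out, but the adjusted p-value of the same test rose to 0.0693 without LPS + DMSO replicate 2, 0.0866 without LPS + siponimod replicate 1 and 0.0702 without LPS + siponimod replicate 3. Cd86 had levels of 60.7, 62.4 and 116 CPM with LPS + DMSO and of 56.8, 95.9 and 58.1 CPM with LPS + siponimod. LPS + siponimod replicates 1 and 3 lay just below the LPS + DMSO range and replicate 2 within it, and Cd86 did not pass the test (log2 FC -0.18, 95% interval from -0.99 to 0.63, edgeR QL adjusted p = 0.707). Its log2 FC was 0.19 without LPS + DMSO replicate 3. The interval includes a change of 1.5-fold in either direction, so that the data do not show that Cd86 was the same in both conditions.

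The ratio of Cd86 to Cd80 counts within a library needs no scaling between libraries. Per Cd80 count there were 1.52, 2.41 and 7.54 Cd86 counts in LPS + DMSO replicates 1, 2 and 3, and 9.98, 10.3 and 9.26 in LPS + siponimod replicates 1, 2 and 3. All 3 libraries with siponimod lay close together and above those with DMSO. On the log2 scale the mean ratio was 1.60 ± 1.19 and 3.30 ± 0.08 (SD, n = 3 each), a difference of 1.70 (two-sided exact permutation test, p = 0.1, the smallest p that this design allows). Within pairs the log2 ratio was higher with siponimod by 2.71, 2.10 and 0.30, the last being that of LPS + DMSO replicate 3, whose ratio was close to those with siponimod. An exact sign-flip test over the 3 pairs gave p = 0.25, the smallest p it can give. The difference between conditions was 1.21 without LPS + DMSO replicate 1 and 2.36 without LPS + DMSO replicate 3.

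The start regions of both genes are shown because the ratio above sets these ligands of the same receptors side by side. RefSeq promoter windows (rat assembly GRCr8, another assembly than the one used for mapping, so that no read is placed on them) were matched by symbol for 8 of the 10 genes, and none was found for Cd40 and Cd200r1. Of each window, the 250 bases before the annotated start and the first 30 after it are printed, 5′ to 3′. For Cd80 (chr11:75797511-75797790, minus strand) the capitals mark the letters TTCNNNGAA, the core of a STAT site (GAS), which begins 73 bases before the start. For Cd86 (chr11:77669031-77669310, plus strand) they mark 2 matches to GGG, any 3 bases and TTCC, letters that fit many NF-κB sites, of which the first lies on the printed strand and the second on the opposite one.
Cd80: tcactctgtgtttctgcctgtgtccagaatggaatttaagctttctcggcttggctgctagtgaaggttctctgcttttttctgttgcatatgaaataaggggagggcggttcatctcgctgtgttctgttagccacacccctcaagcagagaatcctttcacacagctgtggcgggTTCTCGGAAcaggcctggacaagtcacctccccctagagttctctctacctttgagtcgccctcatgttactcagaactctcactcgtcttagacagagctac
Cd86: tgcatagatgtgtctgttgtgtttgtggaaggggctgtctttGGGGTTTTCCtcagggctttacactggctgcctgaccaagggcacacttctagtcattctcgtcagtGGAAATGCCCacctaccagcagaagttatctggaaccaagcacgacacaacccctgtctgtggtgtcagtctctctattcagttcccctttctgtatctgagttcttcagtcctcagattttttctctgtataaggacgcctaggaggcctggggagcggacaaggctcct
Both strands of all windows of 300 bases were searched for these letters and for GAAA, any 2 bases and GAAA (an interferon response element, ISRE), TGANTCA (AP-1), TGACGTCA (CRE) and TGATGNAA (a C/EBP-ATF element). Among 33469 rat windows, 8.87% held the STAT letters, 5.37% the NF-κB letters, 3.92% those of ISRE, 7.33% those of AP-1, 1.83% CRE and 3.98% the C/EBP-ATF letters. Among the 10085 windows of tested genes the shares were 6.74%, 6.69%, 3.11%, 4.9%, 3.12% and 1.92% in the same order. A second annotated start of Cd80 held 1 match to the ISRE letters, Cd83 held 1 match to the NF-κB letters and Havcr2 1 to the STAT letters. The windows of Cd274, Pdcd1lg2, Icoslg and Slamf1 held no match to any of the 6. A match is a description of letters and not evidence of a bound factor.

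Icoslg, the ligand of ICOS, had levels of 75.1, 93.0 and 185 CPM with LPS + DMSO and of 38.5, 73.4 and 62.5 CPM with LPS + siponimod. Its conditions did not overlap, with a gap of less than 2 CPM between the highest library with siponimod and the lowest without. It did not pass the main test (log2 FC -1.02, SE 0.40, edgeR QL adjusted p = 0.103), and without LPS + DMSO replicate 3 its log2 FC was -0.53 (edgeR QL adjusted p = 0.196). With the replicate number as a block it was a DEG (log2 FC -0.96, SE 0.25, edgeR QL adjusted p = 0.039), with differences of -0.96, -0.34 and -1.56 in the 3 pairs.

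Both ligands of PD-1 had lower levels with siponimod. Cd274, which encodes PD-L1, was at 286, 194 and 250 CPM with LPS + DMSO and at 164, 127 and 98.0 CPM with LPS + siponimod. No library with siponimod reached the lowest one without, and Cd274 fell to 53.4% of its level (log2 FC -0.91, SE 0.24, 95% interval from -1.49 to -0.32, edgeR QL adjusted p = 0.0369; 243 ± 46.5 against 130 ± 33.1 CPM, SD, n = 3 each). The call was a narrow one. It was lost in each of the 6 fits with 1 library left out, whose edgeR QL adjusted p-values ran from 0.0563 (without LPS + DMSO replicate 3) to 0.105 (without LPS + siponimod replicate 3), while the log2 FC stayed between -1.11 and -0.73. With the replicate block Cd274 was a DEG (log2 FC -0.92, edgeR QL adjusted p = 0.0197). In the RefSeq gene table Cd274 overlaps Plgrkt, a plasminogen receptor gene, on the chromosome. Plgrkt had between 166 and 235 counts per library, against 4019 to 10588 for Cd274, and did not pass the test (log2 FC -0.13, edgeR QL adjusted p = 0.651). How reads in the overlap were assigned is not stated.

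Pdcd1lg2, which encodes PD-L2 and lies next to Cd274 in that table, had 2100, 2422 and 983 counts with LPS + DMSO and 127, 591 and 21 counts with LPS + siponimod. These correspond to 56.7, 62.9 and 26.5 CPM and to 2.73, 13.2 and 0.512 CPM. The libraries with siponimod lay below all others but ranged over 25.9-fold among themselves, LPS + siponimod replicate 2 being the highest and replicate 3 the lowest. Pdcd1lg2 had the most negative log2 FC of the 10 genes but also the largest standard error, and it did not pass the main test (log2 FC -3.14, SE 1.07, edgeR QL adjusted p = 0.0712). With the replicate number as a block it was a DEG (log2 FC -3.95, SE 0.71, edgeR QL adjusted p = 0.0146), as it was without LPS + siponimod replicate 2 (log2 FC -4.89, edgeR QL adjusted p = 0.0211). With any other library left out it did not pass, the edgeR QL adjusted p lying between 0.0651 and 0.221 and the log2 FC reaching -2.60 without LPS + siponimod replicate 3. The differences within pairs were -4.35, -2.24 and -5.56. DESeq2, limma-voom and edgeR's likelihood ratio test also called it, with adjusted p-values of 0.00287, 0.0277 and 0.0121. Ric1, the coding gene on the other side of Pdcd1lg2, was also a lower DEG, with a log2 FC of -1.39 (standard error 0.19, edgeR QL adjusted p = 0.00797), and was looked up after the values of its neighbours were seen.

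Within a library, Cd274 counts per Pdcd1lg2 count were 5.04, 3.08 and 9.45 in LPS + DMSO replicates 1, 2 and 3 and 59.8, 9.61 and 187 in LPS + siponimod replicates 1, 2 and 3. The lowest ratio with siponimod and the highest without were nearly equal. The mean log2 ratio was 2.40 ± 0.81 and 5.57 ± 2.16 (SD, n = 3 each), a difference of 3.17 (two-sided exact permutation test, p = 0.1, the smallest that the design allows), and it was higher with siponimod in all 3 pairs, by 3.57, 1.64 and 4.31. The exact sign-flip test over the 3 pairs again gave its smallest possible p, 0.25. This difference was 2.18 without LPS + siponimod replicate 3 and 4.33 without LPS + siponimod replicate 2.

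**Figure D2:**
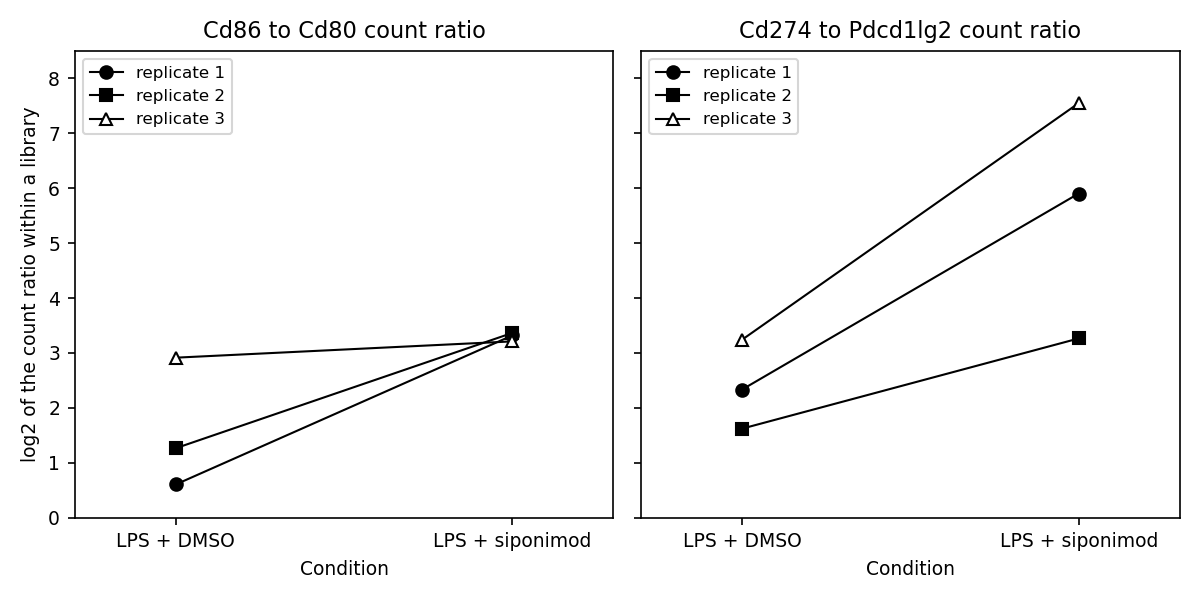
Log2 of the Cd86 to Cd80 count ratio (left) and of the Cd274 to Pdcd1lg2 count ratio (right) within each library, with a line joining same-numbered libraries of LPS + DMSO and LPS + siponimod. Both ratios are higher with siponimod in all 3 pairs, and the Cd86 to Cd80 ratios of the 3 libraries with siponimod meet between 3.21 and 3.37 on the log2 scale.

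Cd40 and Cd83, a receptor for T cell help and a maturation marker, did not pass the test, and for both LPS + DMSO replicate 3 set the spread. Cd40 was at 61.0, 43.4 and 108 CPM with LPS + DMSO and at 59.4, 45.7 and 47.8 CPM with LPS + siponimod (log2 FC -0.47, 95% interval from -1.29 to 0.34, edgeR QL adjusted p = 0.316). Replicates 1 and 2 were almost equal across the conditions, with differences within pairs of -0.04 and 0.07, and the third pair differed by -1.18. The log2 FC of Cd40 was -0.03 without LPS + DMSO replicate 3. Cd83 was at 61.8, 31.3 and 279 CPM with LPS + DMSO and at 154, 159 and 242 CPM with LPS + siponimod. LPS + DMSO replicate 3 was thus 8.92-fold above replicate 2 of the same condition and the highest of all 6 libraries, while the other 2 lay below every library with siponimod. Over all libraries Cd83 had a log2 FC of 0.58 with a 95% interval from -1.30 to 2.45 (edgeR QL adjusted p = 0.599). Without LPS + DMSO replicate 3 it was a DEG (log2 FC 1.99, SE 0.39, edgeR QL adjusted p = 0.0199), and also without both libraries numbered 3 (log2 FC 1.75, SE 0.36, edgeR QL adjusted p = 0.0415). With the replicate block the log2 FC was 1.16 (edgeR QL adjusted p = 0.134).

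Slamf1, which encodes an adhesion and costimulatory receptor of the SLAM family, was at 35.0, 35.0 and 80.4 CPM with LPS + DMSO and at 9.97, 16.6 and 18.1 CPM with LPS + siponimod. Its highest library with siponimod was below the lowest without, and Slamf1 fell 3.37-fold (log2 FC -1.75, SE 0.41, edgeR QL adjusted p = 0.0271; 50.1 ± 26.2 against 14.9 ± 4.33 CPM, SD, n = 3 each). It was lower in each pair, by -1.81, -1.07 and -2.15 on the log2 scale. The edgeR QL adjusted p-value was 0.0615 without LPS + DMSO replicate 2, and 0.101, 0.0571 and 0.0717 without LPS + siponimod replicates 1, 2 and 3. Without LPS + DMSO replicate 3 Slamf1 stayed a DEG, with a log2 FC of -1.23, the smallest decrease of these fits.

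Havcr2, which encodes TIM-3, changed in the opposite direction and more than any other of the 10 genes by its adjusted p-value. It had 574, 267 and 817 counts with LPS + DMSO and 6326, 4902 and 11121 counts with LPS + siponimod. The lowest library with siponimod was well above the highest without. Havcr2 rose 11.6-fold, the mean being 14.8 ± 7.55 CPM without and 172 ± 86.6 CPM with siponimod (SD, n = 3 each, with a log2 FC of 3.54, SE 0.55, edgeR QL adjusted p = 0.0101). The pairs were alike, with differences of 3.13, 3.98 and 3.62, and the standard error was 0.21 with the replicate block. It was the only one of the 4 DEGs that stayed a DEG in all 6 fits with 1 library left out, where the log2 FC ranged from 3.06 to 3.95 and the edgeR QL adjusted p-value reached at most 0.0432. A gene named by a locus number only (LOC134480685) overlaps Havcr2 in the RefSeq table. The start region of Havcr2 is shown as that of the gene with the largest rise (GRCr8, chr10:31383675-31383954, plus strand, 250 bases before and 30 after the annotated start), with capitals for the STAT letters TTCNNNGAA just after the start.
Havcr2: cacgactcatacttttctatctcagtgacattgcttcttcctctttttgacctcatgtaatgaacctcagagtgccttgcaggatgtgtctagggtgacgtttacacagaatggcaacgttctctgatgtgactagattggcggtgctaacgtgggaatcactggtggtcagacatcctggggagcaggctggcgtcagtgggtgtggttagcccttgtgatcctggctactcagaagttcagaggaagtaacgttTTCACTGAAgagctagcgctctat

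Cd200r1, the receptor through which CD200 restrains myeloid cells, was at 115, 138 and 209 CPM with LPS + DMSO and at 116, 153 and 125 CPM with LPS + siponimod. The conditions overlapped, and Cd200r1 did not pass the test (log2 FC -0.23, 95% interval from -0.83 to 0.37, edgeR QL adjusted p = 0.51). Its log2 FC was 0.06 without LPS + DMSO replicate 3. The neighbouring relative Cd200r1l, whose sequence is similar and which could share reads, had 105, 66 and 6 counts with LPS + DMSO and 34, 23 and 10 with LPS + siponimod, far below the 4278 to 7753 counts of Cd200r1.

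**Figure D3:**
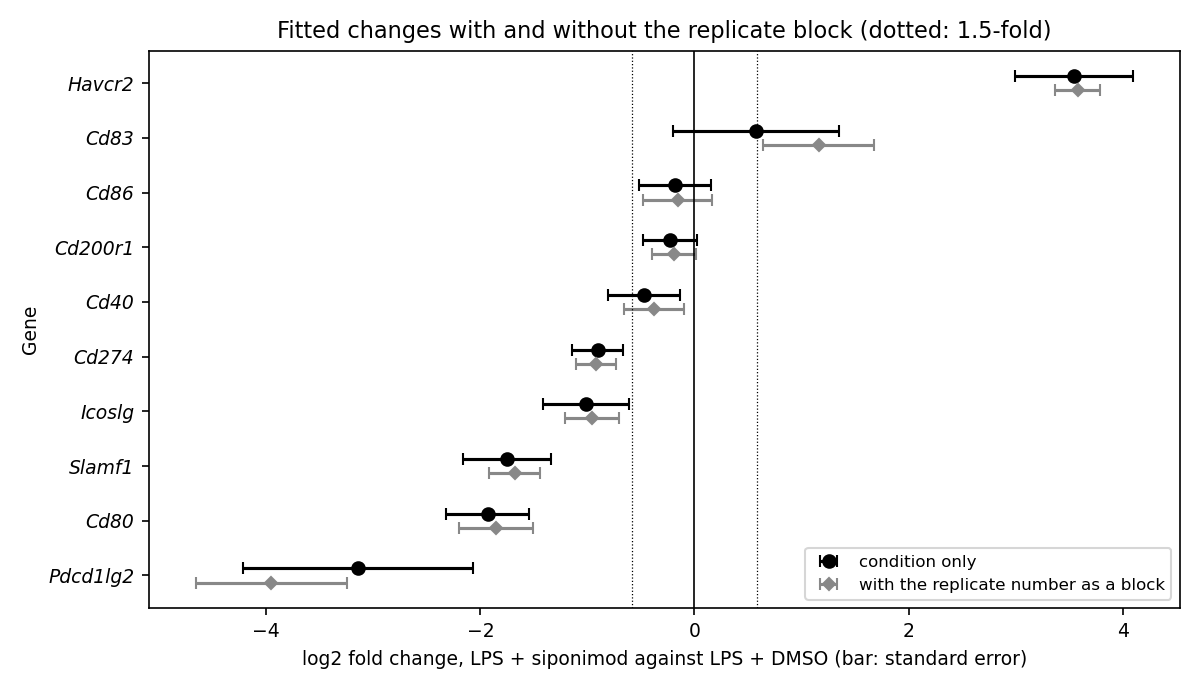
Fitted log2 fold changes of the 10 genes, LPS + siponimod against LPS + DMSO, with standard errors, from the fit on the condition alone (black) and with the replicate number as a block (grey); dotted lines mark a 1.5-fold change. Havcr2 lies at 3.54 and Pdcd1lg2 at -3.14 in the fit on the condition alone, and the grey bars of all 10 genes are shorter than the black ones.

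Likeness of patterns over the 6 libraries was measured as the root mean square distance between log2 CPM profiles, each centred on its own mean. Among the 10 genes, Cd86 and Cd200r1 were closest to each other (0.16), followed by Cd40 and Cd200r1 (0.34) and by Icoslg and Slamf1 (0.39). Havcr2 and Pdcd1lg2 were farthest apart (4.26). Outside the list, the genes most like Cd80 were St3gal2, which encodes a sialyltransferase (distance 0.09, with 271, 181 and 95 against 43, 75 and 51 counts), and AABR07025272.1, a gene known by its clone only (0.11). The genes most like Slamf1 were Ada, which encodes adenosine deaminase (0.16), and Cyfip1, a regulator of actin (0.20). Those most like Havcr2 were Fosl1, an AP-1 transcription factor gene (0.29, with 253, 116 and 631 against 3636, 2179 and 5485 counts), and Rgs9, a regulator of G protein signalling (0.30). Tubd1 (0.13) and Akap3 (0.16) were most like Cd274 and had at most 184 and 139 counts. These are the smallest distances among 11977 genes and are given as a description.

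A list of 29 other ligands and counter-receptors of T cells had 26 tested genes. It held members of the B7, SLAM, nectin and tumor necrosis factor (TNF) families and others, such as Lgals9, Ceacam1, Cd47 and Cd200. Of these 5 were higher and 7 lower DEGs and 14 did not pass, beside 13.6% higher and 11.7% lower over all genes tested, with a median log2 FC of -0.07. With the replicate block 7 were higher and 9 lower, beside 17.7% and 16.4%. Pvr, which encodes CD155, a ligand of the T cell receptors CD226 and TIGIT, had 1958, 1408 and 2129 counts with LPS + DMSO and 20248, 13492 and 20106 with LPS + siponimod (log2 FC 3.07, SE 0.27, edgeR QL adjusted p = 0.00405). Nectin2, which encodes another ligand of both receptors, went the other way, with 231, 137 and 103 against 53.1, 60.2 and 53.3 CPM (log2 FC -1.50, edgeR QL adjusted p = 0.0179). Lgals9, whose product galectin-9 is a ligand of TIM-3, was lower while Havcr2 was higher (351, 453 and 283 against 67.2, 191 and 85.9 CPM, log2 FC -1.66, edgeR QL adjusted p = 0.0347). Ceacam1, another partner of TIM-3, had a log2 FC of -1.01 (edgeR QL adjusted p = 0.242, and 0.0349 with the replicate block). Cd200 rose from 2.81, 0.415 and 3.10 to 69.2, 7.95 and 33.7 CPM (log2 FC 4.13, SE 1.03, edgeR QL adjusted p = 0.0306), while its receptor gene Cd200r1 did not pass the test. The call of Cd200 was lost without LPS + DMSO replicate 1 or 2 and without LPS + siponimod replicate 1 or 3 (edgeR QL adjusted p up to 0.107).

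In the TNF family, the other higher DEGs were Tnfsf18, Tnfsf15 and Tnfsf9, which encodes the ligand of 4-1BB, with log2 FCs of 4.36, 2.69 and 1.40. Tnfsf14 had 57, 75 and 13 counts with LPS + DMSO and 0, 4 and 4 with LPS + siponimod (log2 FC -4.31, edgeR QL adjusted p = 0.0299), and its receptor gene Tnfrsf14 had a log2 FC of -1.11. Tnfsf4, which encodes OX40 ligand, had a log2 FC of -2.77 and did not pass (edgeR QL adjusted p = 0.0886), but was a lower DEG with the replicate block (log2 FC -3.43, edgeR QL adjusted p = 0.0312). In the SLAM family, Ly9 (log2 FC -2.97) and Slamf9 (-2.86) were lower DEGs like Slamf1, while Slamf6, Slamf7, Slamf8 and Cd84 had log2 FCs between 0.54 and 1.26 and did not pass. Cd48 of the same family had a negative log2 FC of -0.83 and did not pass either (edgeR QL adjusted p = 0.0758). With the replicate block Slamf6 was a higher DEG (log2 FC 1.06, edgeR QL adjusted p = 0.0144). Cd47, whose product restrains phagocytes, was a lower DEG as well (log2 FC -1.03). Vtcn1, Cd70 and Btn1a1 had at most 6 counts in any library and were not tested. Pvr stayed a DEG in all 6 fits with 1 library left out. Calls were fewer over the whole table as well in the fits that left out LPS + DMSO replicate 1 (8.75% higher and 5.13% lower), LPS + DMSO replicate 2 (3.72% and 1.44%), LPS + siponimod replicate 1 (4.7% and 1.52%) or LPS + siponimod replicate 3 (6.26% and 2.24%). Without LPS + DMSO replicate 2, Pvr was the only DEG of the list, without LPS + siponimod replicate 1 it held no lower DEG, without LPS + siponimod replicate 3 it held 1 and without LPS + DMSO replicate 1 it held 2. Without both libraries numbered 3 it held 6 higher and 4 lower DEGs, beside 11.1% and 8.17%.

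**Figure D4:**
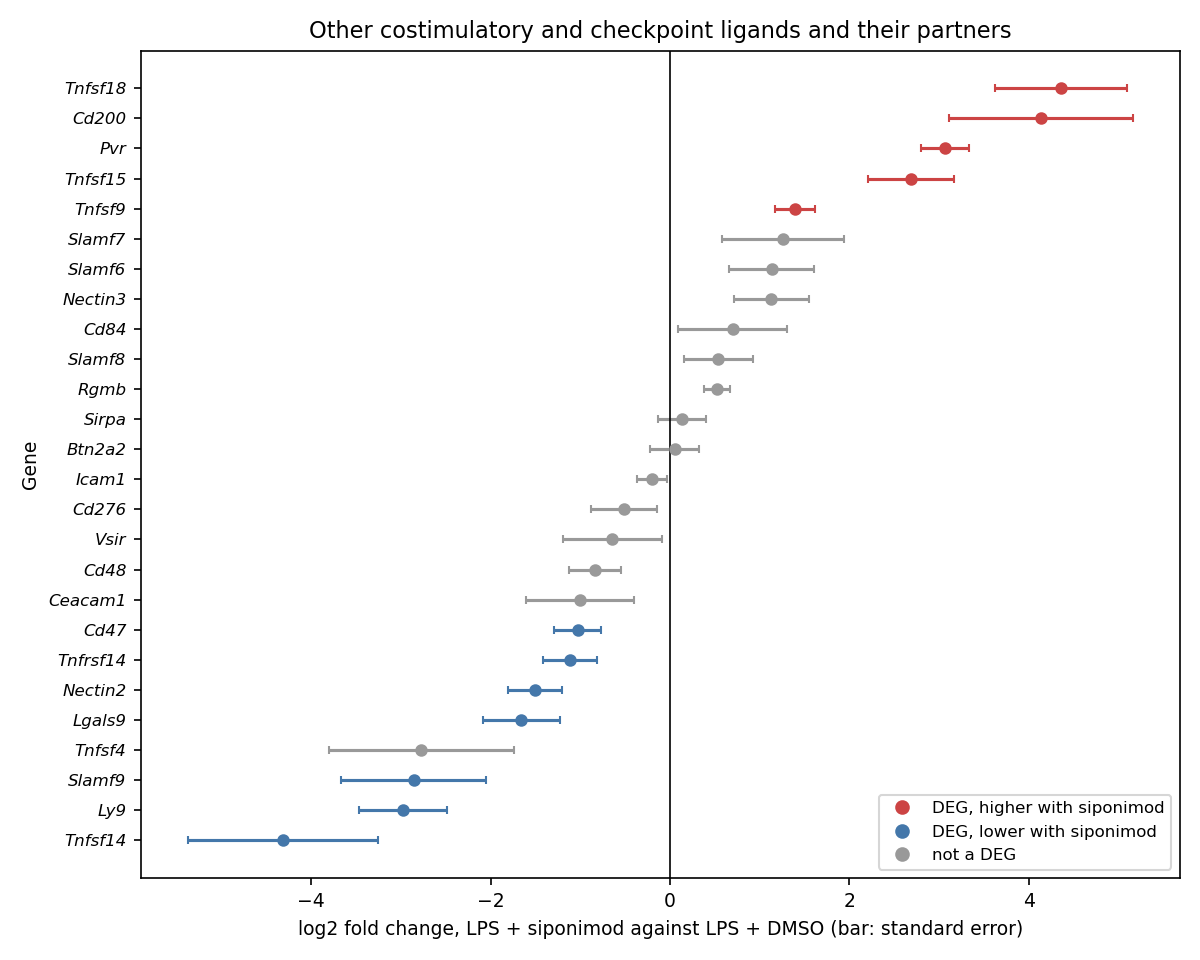
Fitted log2 fold changes with standard errors of the 26 tested genes among other costimulatory and checkpoint ligands and their partners, with higher DEGs in red, lower DEGs in blue and other genes in grey. Tnfsf18, Cd200, Pvr, Tnfsf15 and Tnfsf9 are the 5 higher DEGs, and Tnfsf14 has the most negative value, -4.31.

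Genes that act in signalling, transcription or turnover of the 10 proteins were tested as a list of 32, of which 3 were higher and 10 lower DEGs, beside 13.6% and 11.7% over all genes tested, with a median log2 FC of -0.34. With the replicate block 3 were higher and 14 lower, beside 17.7% and 16.4%. Traf1, an adaptor of CD40 and other TNF receptors, rose from 22.8, 15.4 and 31.9 to 143, 96.9 and 149 CPM (log2 FC 2.47, SE 0.32, edgeR QL adjusted p = 0.00733), Birc2, a ubiquitin ligase of the same complex, had a log2 FC of 2.48 and Rela, an NF-κB subunit, one of 0.80. The adaptors Traf2, Traf3 and Traf6 had log2 FCs of -0.02, -0.29 and 0.55 and did not pass. Marchf1, the ubiquitin ligase that removes CD86 and MHC class II from the surface and is opposed by CD83, fell from 45.0, 34.9 and 10.7 to 1.89, 3.72 and 2.61 CPM (log2 FC -3.46, SE 0.59, edgeR QL adjusted p = 0.012). Stat3 (log2 FC -0.91, edgeR QL adjusted p = 0.00834) and Jak2 (-0.62, 0.0205), which act on transcription of Cd274 among many genes, were lower DEGs, as was Inpp5d (-1.03, 0.0225), which encodes the inositol phosphatase SHIP1. Cmtm6, which protects PD-L1 from degradation, had a log2 FC of 0.13 (edgeR QL adjusted p = 0.69). Traf1 and Stat3 stayed DEGs in all 6 fits with 1 library left out, whereas Marchf1 was lost without LPS + DMSO replicate 2, LPS + siponimod replicate 1 or LPS + siponimod replicate 3 (edgeR QL adjusted p-value up to 0.0625). Without LPS + DMSO replicate 2 the list held 1 higher and 1 lower DEG, without LPS + siponimod replicate 1 or 3 it held 1 lower DEG and without LPS + DMSO replicate 1 it held 2. Without both libraries numbered 3 it held 3 higher and 4 lower DEGs, beside 11.1% and 8.17%, and the shares for the fits with 1 library left out are those given for the other ligands.

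On the side of the T cell, Cd3e, Cd3g, Cd40lg, Cd226, Tigit and Btla had no count in any of the 6 libraries, which allows at most 3 counts, or up to 0.081 CPM, in each (counting error only). Cd28 had between 6 and 18 counts and Ctla4 between 0 and 4. Pdcd1, which encodes PD-1, had 18, 20 and 27 counts with LPS + DMSO and 26, 73 and 44 with LPS + siponimod (log2 FC 0.91, edgeR QL adjusted p = 0.19). Icos, by contrast, was measured at 24.9, 18.9 and 7.21 CPM with LPS + DMSO and 28.6, 42.5 and 14.7 CPM with LPS + siponimod (log2 FC 0.75, edgeR QL adjusted p = 0.326). It was a DEG with the replicate block (edgeR QL adjusted p = 0.0483). Of the 10 genes tested in this list of 21, Lag3 was the 1 higher DEG, with at most 44 counts, and Cd244, a receptor for CD48 that myeloid cells also carry, was the 1 lower DEG (81.4, 92.9 and 55.9 against 7.79, 16.9 and 5.85 CPM, log2 FC -2.91, edgeR QL adjusted p = 0.00984). These counts stand beside 13.6% higher and 11.7% lower DEGs over all genes tested. Without LPS + siponimod replicate 1 the adjusted p-value of Cd244 was 0.0531. With the replicate block the list held 3 higher DEGs, beside 17.7% of all genes tested. Lag3 kept its call in 1 of the 6 fits with 1 library left out, the fit without LPS + DMSO replicate 3.

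Other cell types that could carry these ligands were looked for by their markers. Among the B cell markers Blk and Cr2 had no count in any library, and Cd79b, the most abundant, had 593, 2343 and 1145 counts with LPS + DMSO and 38, 980 and 40 counts with LPS + siponimod. Of 11 dendritic cell markers Siglech had no count and Flt3 and Xcr1 had at most 5 and 3 counts. Clec9a and Ccr7 had at most 19 and 20 counts. Zbtb46 had 140, 105 and 50 counts with LPS + DMSO and 87, 63 and 101 with LPS + siponimod, and did not pass the test. Fscn1, the most abundant gene of that list in LPS + DMSO replicates 1 and 2, encodes the actin-bundling protein fascin and was a lower DEG (1292, 1781 and 1064 against 43.6, 191 and 76.4 CPM). In the other libraries Itgax was the highest gene of the list. The list summed to 1812, 2259 and 2147 CPM with LPS + DMSO and to 469, 725 and 573 CPM with LPS + siponimod, and most of this fall was that of Fscn1 alone. Of its 6 tested genes 2 were lower DEGs (Fscn1 and Itgae) and 1 was higher, beside 11.7% and 13.6% of all genes tested. The higher one was Cacnb3, which encodes a calcium channel subunit (8.96, 4.28 and 3.63 against 34.7, 39.9 and 39.2 CPM, log2 FC 2.75, edgeR QL adjusted p = 0.00759). The T cell markers summed to between 11.1 and 14.1 CPM with LPS + DMSO and between 9.19 and 10.8 CPM with LPS + siponimod, most of it Lck. The oligodendrocyte lineage list, led by Cnp, summed to 149.9, 136 and 149 CPM with LPS + DMSO and to 49.2, 67.8 and 60.0 CPM with LPS + siponimod, Cnp being a lower DEG (log2 FC -1.55) and Mbp a higher one (1.74). The astrocyte list, led by Slc1a3, summed to 48.4, 24.4 and 27.6 CPM against 29.4, 28.8 and 61.1 CPM, with Aldoc as a lower DEG. Cnp alone made up 145, 131 and 113 CPM of the oligodendrocyte lineage sums with LPS + DMSO and 37.8, 57.5 and 37.4 CPM of those with LPS + siponimod, so that most of their difference was that of a single gene. In the libraries numbered 3 the 5 markers of oligodendrocyte precursors differed as well, with sums of 32.8 CPM with LPS + DMSO and 5.05 CPM with LPS + siponimod.

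The neuron list, led by Tubb3, summed to 1.73, 1.09 and 12.4 CPM against 6.39, 9.28 and 17.4 CPM. Within it Snap25, a gene of synaptic vesicle fusion, was a higher DEG, with 0, 1 and 1 counts against 94, 153 and 81. The fibroblast and pericyte list summed to at most 11.9 CPM in any library, and Dcn, which encodes the matrix proteoglycan decorin, was a higher DEG in it, with 3, 0 and 4 counts against 456, 49 and 178. The endothelial list, with no count of Kdr, summed to 196, 239 and 142 CPM against 99.5, 117 and 96.4 CPM, while the median log2 FC of its 5 tested genes was 0.30, Tek, Tie1 and Esam having positive and Cdh5 and Pecam1 negative values. Its highest gene was Cdh5, apart from Pecam1 in LPS + DMSO replicate 2 and Esam in LPS + siponimod replicates 1 and 3. Cdh5 and Pecam1 were lower DEGs with the replicate block alone, as was Cd79b of the B cell list, and Tubb3 was a higher one. The part of any of these cells in the results was not tested.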

How the data were processed

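Per the labels and the methods of the study, polyA-selected mRNA was sequenced as single-end reads, which were demultiplexed and trimmed (bcl2fastq version 2.20.0.422) and mapped in the CLC Genomics Workbench to the rat genome (mRatBN7.2). The deposited values are total read counts per gene and library, without normalization by the authors. How reads of overlapping or near-identical genes, strand and introns were handled is not given in the sources used here. In 1 table, 1 row without name and value was left out.

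The whole table was fitted with edgeR (version 4.0.16) in R (version 4.3.3). filterByExpr (minimum count 10, minimum total 15) kept 11977 of 23139 genes, and TMM factors ranged from 0.939 to 1.06. The condition was the only term of glmQLFit and glmQLFTest, the Benjamini-Hochberg adjustment of p-values ran over all genes tested, and the standard error is the log2 FC divided by the square root of the F statistic. Intervals of 95% use the test's degrees of freedom. A depth of 38080379 to 46643859 counts makes 1 count worth less than 0.03 CPM. Within pairs, log2 CPM (prior count 2) were subtracted, and ratios within a library had 0.5 added to each count.

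Replicates are numbered 1 to 3 in both conditions. Deviations from the condition means correlated over genes by 0.42, 0.545 and 0.611 between same-numbered libraries and by -0.534 to 0.0856 between others, so the numbers were taken as pairing the libraries, from these values and not from a statement in the sources. Alternatives were this block, RLE, DESeq2 (version 1.42.0), limma-voom (limma version 3.58.1), the likelihood ratio test, other filters and each library left out. The fit without both libraries numbered 3 was chosen after seeing the data. The procedure was tested on simulated data.

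The 10 genes and all lists were chosen with earlier results of these data known. Named are the 10 genes, of each list up to 4 DEGs per direction with the smallest adjusted p-values, the 2 genes most like each DEG and the most abundant gene of each marker list. Other genes named from the lists were chosen after their values were seen, as were Plgrkt, Ric1 and Cd200r1l. Promoter sequences are from RefSeq (GRCr8).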

Additional observations from a re-analysis of the deposited data

How the results depend on the processing

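The median log2 FC of the 10 genes stayed negative in all 14 alternatives (-0.87 to -0.28), and Havcr2 stayed a DEG in each. The count of lower DEGs among the 10 was 5 with DESeq2 (16.1% of all genes tested) and 5 with the replicate block (16.4%), 4 with limma-voom (12%) and the likelihood ratio test (14.5%), and 2 without a filter (6.53%). In the list of T cell receptors the 1 higher DEG became 2 with DESeq2 (16.5% of all genes tested), 2 with the likelihood ratio test (15.3%) and 3 with the replicate block (17.7%). It became 0 without a filter (8.38%), with a mean of at least 1 CPM (14%) or without both libraries numbered 3. That last setting, with 11.1% higher and 8.17% lower DEGs over all genes tested, also gave 2 higher DEGs among the 10 genes, 4 lower ones among the other ligands and 4 among the signalling genes, and its log2 FCs of Cd86 (0.31), Cd40 (0.014) and Cd200r1 (0.091) were positive.

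With 1 library left out, higher DEGs ranged from 1 to 2 among the 10 genes, 1 to 7 among the other ligands, 1 to 5 among the signalling genes and 0 to 1 among the T cell receptors. Lower DEGs ranged from 0 to 2, 0 to 8, 1 to 11 and 0 to 1. Over the whole table such fits gave between 469 and 1941 higher and between 182 and 1772 lower DEGs, the fewest without LPS + DMSO replicate 2. The log2 FC ranged from -0.48 to 0.19 for Cd86 and from -0.38 to 0.056 for Cd200r1, both positive only without LPS + DMSO replicate 3. Where a condition kept 2 libraries, its spread was shared with the other condition. Apart from Pdcd1lg2 and Icoslg, the replicate block changed no call among the 10 genes. Without a filter Cd274 was not called (edgeR QL adjusted p = 0.0503). The direction of both count ratios was the same in all 8 alternatives (1.21 to 2.36 for Cd86 to Cd80 and 2.18 to 4.33 for Cd274 to Pdcd1lg2, log2). The cause of these changes was not tested. Counts of the 10 genes were 21 or more in every library, while Lag3, with 1 to 44 counts, was near the limit of the depth.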
